A study of Mus musculus with 12 samples.

Results

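The RNA of melanoma cells depleted of OSGEP was described gene by gene in 3 pairs of libraries, each holding a control and a knockdown library with the same replicate number. B16F10 is an established line of mouse melanoma. A control hairpin (shCtr, n = 3) or hairpin OSGEP#2, directed against Osgep (shOSGEP, n = 3), was delivered by lentivirus and followed by puromycin selection, so that both groups share the vector and the drug. They were grown in DMEM with 10% serum. A single hairpin stood for the knockdown, and each library came from an infected population and not from a clone. The members were the protein-coding genes with at least 10 counts in each of the 6 total RNA libraries, 11577 of the 55487 genes in the table. Of its 21974 protein-coding genes, 6016 had no count in any library. At the edge of the rule, 49 protein-coding genes had a smallest count of exactly 10 and entered, and 53 had a smallest count of 9 and did not. The series' 6 libraries of ribosome-protected fragments were not used here.

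OSGEP is the enzyme within KEOPS, a protein complex that together with the enzyme YRDC places the modification t6A beside the anticodon of tRNAs that read codons beginning with A. Stress kinases such as HRI, GCN2 and PERK phosphorylate the initiation factor eIF2α, after which the transcription factor ATF4 is made and switches on genes for amino acid synthesis, amino acid uptake and tRNA charging. This is the integrated stress response. Cytosolic RNA sensors such as RIG-I (gene Ddx58) and MDA5 (Ifih1) form a separate arm, which leads to interferon and to interferon-stimulated genes, among them those that load peptides on MHC class I. In melanoma cells the factor MITF sets the pigment programme.

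The libraries held 46.7 to 81.1 M counts (M for mega), of which 88.5 to 93.4% fell on members. The library shOSGEP replicate 1 stood apart from the other 5: replication-dependent histone genes took 0.252% of its counts against 0.820 to 1.04% elsewhere, and mitochondrially encoded genes took 1.48% against 2.67 to 3.94%. Its chi-square statistic per degree of freedom against the other shOSGEP libraries was 822 and 558, whereas the other pairs of libraries within a group lay between 88.4 and 102. Each result below is therefore given pair by pair. The melanocyte markers were all members, and their summed level was 9665 to 16836 CPM (counts per M counts, on scaled library sizes) in 5 libraries and 2655 CPM in shOSGEP replicate 1. Of the leukocyte markers 1 of 8 was a member, and the sum of the 8 was 0.581 to 1.94 CPM. The 5 endothelial markers summed to at most 0.232 CPM, the 7 keratinocyte markers to at most 0.868 CPM, and the 7 fibroblast markers to 6.51 to 10.3 CPM in 5 libraries and 25.3 CPM in shOSGEP replicate 1. Ptprc, the pan-leukocyte marker, had 5 counts in shOSGEP replicate 1 and 0 in each of the other libraries.

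The listed sequence of the hairpin is shown with its match in Osgep. The study's table gives it as 41 bases. It was searched only in the 8 annotated Osgep transcripts of GENCODE (release M21, build GRCm38), on the minus strand of chromosome 14. Transcripts of other genes were not searched.
OSGEP#2: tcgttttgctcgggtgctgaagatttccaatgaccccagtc
The listed sequence crosses an exon junction. Which of its bases act on the RNA was not determined here. The first 22 bases lie in exon 4 (chr14:50917836-50917857) and the last 19 in exon 5 (chr14:50917485-50917503), inside coding sequence in each of the 3 protein-coding transcripts. It matched 7 of the gene's 8 annotated transcripts.

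Osgep had 815, 873 and 739 counts in shCtr replicates 1, 2 and 3 and 38, 536 and 401 counts in shOSGEP. These counts correspond to 13.9, 15.7 and 15.3 CPM in shCtr and 0.589, 6.92 and 6.77 CPM in shOSGEP, so every knockdown library lay below every control. Of the paired control's level, 4.25% was left in shOSGEP replicate 1, 44.0% in shOSGEP replicate 2 and 44.4% in shOSGEP replicate 3. The depth of the knockdown thus differed between the pairs, and this difference moves with every result on replicate 1 below. Its part in those results was not tested. Across all genes, the quasi-likelihood test of edgeR gave Osgep a log2 change of -1.65 (SE 0.77, adjusted p = 0.975), and -2.13 (adjusted p = 0.721) with the replicate number as a block.

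Among the other genes that make t6A, no member moved by a comparable amount. Yrdc, which makes the intermediate that KEOPS transfers, differed by -0.49, -0.16 and -0.17 log2 in the pairs of replicates 1, 2 and 3. The KEOPS subunit genes Tprkb (0.56, 0.022 and 0.11), Gon7 (-0.47, 0.33 and -0.18) and Lage3 (-0.016, -0.14 and -0.056) showed small differences of either sign. Over the 9 genes of the list, Osgep included, the medians were -0.086, -0.13 and -0.056. Throughout, paired differences are log2 CPM of shOSGEP minus that of shCtr with the same number, in the order of replicates 1, 2 and 3.

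Over all members, the paired differences were centred near 0, with medians of 0.016, 0.0043 and -0.011. Their spread was not alike. The pair of replicate 1 had an SD over members of 0.886, that of replicate 2 of 0.320 and that of replicate 3 of 0.268. A difference of at least 1 log2 unit, 2-fold, was reached by 2107 members (18.2%) in replicate 1, 206 (1.78%) in replicate 2 and 126 (1.09%) in replicate 3. Across the 11577 members, which are not independent of each other, Pearson's r between paired differences was 0.257 for replicates 1 and 2, 0.367 for replicates 1 and 3 and 0.0467 for replicates 2 and 3. The pairs with the weaker knockdown therefore shared little of their gene-by-gene order.

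The edgeR test over 14516 genes called 0 of them (0%) at an adjusted p under 0.05, and the smallest adjusted p was 0.975. At an unadjusted p under 0.05 the same test held 221 genes higher (1.52% of those tested) and 38 lower (0.262%). With the replicate block, edgeR called 1 gene (0.00689%), Cdsn, and had 364 genes higher (2.51%) and 85 lower (0.586%) at an unadjusted p under 0.05. DESeq2 called 9 genes, among 24684 with a p-value, a wider set than that of edgeR. The labels do not say whether the replicates came from separate infections, although the general methods state it, so p-values measure the spread between these libraries.

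Cdsn, which encodes corneodesmosin, a protein that glues cells of the outer skin together, rose in every pair. Its level was 2.91, 0.703 and 1.14 CPM in shCtr and 84.0, 29.6 and 42.3 CPM in shOSGEP, and every knockdown library lay above every control. The 3 pairs gave 28.6-fold, 40.3-fold and 36.2-fold. In the edgeR fit with the replicate block the log2 change was 5.14 (SE 0.18, adjusted p = 0.0288), and it was 5.29 (adjusted p = 0.00351) without both libraries of replicate 1. Cdsn is known from differentiated keratinocytes. Of the 7 keratinocyte markers 1 was a member, Cdh1, an adhesion protein of epithelia, which was lower in all 3 pairs by -1.21, -0.54 and -0.34. Of the others, Krt5, Krt10 and Dsg1a had 0 counts in every library, Krt1 at most 1 count, Trp63 at most 2 and Krt14 at most 3. The part of such cells in the Cdsn result was not tested.

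The remaining members were described in a pair of ways. A member was taken as alike if its paired difference was at least 0.25 log2 units, in the same direction, in all 3 pairs. By this, 281 members were alike and higher (2.43%) and 112 were alike and lower (0.967%), while 2007 (17.3%) were higher by any amount in all pairs and 2083 (18%) lower. A member was taken as moving in replicate 1 if it differed by at least 1 log2 unit there and by under 0.5 in replicates 2 and 3, which held for 601 higher (5.19%) and 850 lower members (7.34%). The same criterion with replicate 2 in that place held for 17 and 20 members, and with replicate 3 for 5 and 8. The classes overlap, with 38 members in both of the higher classes and 32 in both of the lower ones. The groups did not overlap, in the sense that every shOSGEP library lay on one side of every shCtr library, for 466 members higher (4.03%) and 389 lower (3.36%).

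**Figure D1:**
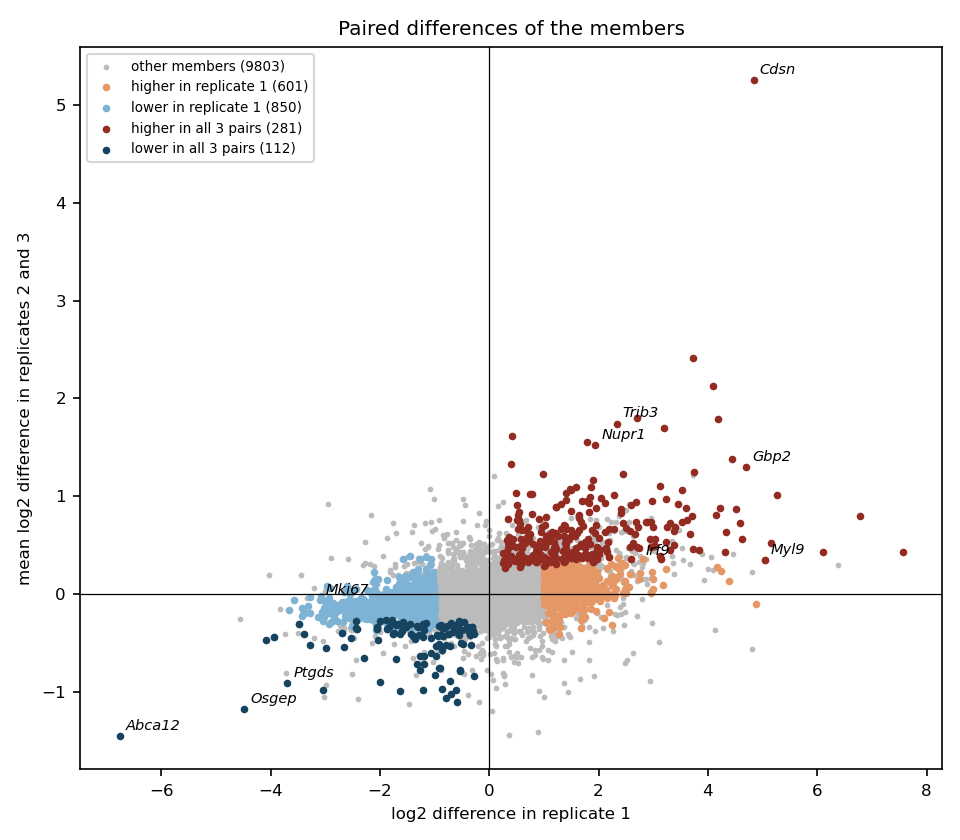
Each point is 1 of the 11577 members, placed by its paired log2 difference in replicate 1 (x axis) and its mean paired log2 difference in replicates 2 and 3 (y axis), with colours for the classes and members of both classes drawn in the darker colour. The cloud is wider along x (SD 0.886) than along y, and Cdsn lies alone at the top, past 5 log2 units on the y axis.

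The stress response regulators were the list with the largest medians shared by the pairs. This list holds the factors and feedback genes of the integrated stress response, and its medians were 1.36, 0.55 and 0.65, or 2.56-fold, 1.47-fold and 1.57-fold. All 16 members of its 19 genes were higher in all 3 pairs, beside 17.3% of all members, and 12 of the 16 were alike by at least 0.25 log2 units, beside 2.43%. In edgeR 8 of the 16 had an unadjusted p under 0.05 (1.52% of all genes tested, in the higher direction) and 14 had one with the replicate block (2.51%), all of them higher and none past the adjusted threshold. The other 3 genes fell below 10 counts in at least 1 library and were not counted.

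Nupr1, a small chromatin-associated protein of the stress response, had 9.66, 2.65 and 4.67 CPM in shCtr and 37.1, 7.76 and 13.2 CPM in shOSGEP. Its paired differences of 1.94, 1.54 and 1.497 were close to each other. Yet the groups overlapped, since shCtr replicate 1 lay above shOSGEP replicate 2. Trib3, a pseudokinase that feeds back on ATF4, went from 28.7, 16.6 and 10.9 to 145, 34.0 and 59.5 CPM, and its paired differences were 2.33, 1.04 and 2.44. All 3 knockdown libraries of Trib3 lay above all controls. Gdf15, a secreted stress cytokine, had 26.3, 15.7 and 26.6 CPM in shCtr and 61.2, 30.9 and 46.7 CPM in shOSGEP, without overlap. Chac1, which breaks down glutathione, had 29.4, 14.5 and 17.7 and 104, 24.8 and 37.8 CPM, and paired differences of 1.82, 0.78 and 1.09. Atf5, a factor of the mitochondrial stress response, differed by 1.58, 0.56 and 1.63.

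Atf4 itself, the central factor, had 242, 264 and 274 CPM in shCtr and 441, 347 and 402 CPM in shOSGEP, which did not overlap, and paired differences of 0.87, 0.39 and 0.55. In edgeR its log2 change was 0.61 (SE 0.15, adjusted p = 0.975). Ddit3, which encodes the factor CHOP, had 14.1, 7.76 and 9.32 CPM in shCtr and 21.3, 11.3 and 15.8 CPM in shOSGEP. Here the groups overlapped while the pairs moved together, by 0.60, 0.54 and 0.76. The largest differences of the list in replicate 1, beside that of Trib3, were those of Cebpb (2.06, 0.15 and 0.83) and Nfil3 (2.05, 0.19 and 0.58), leucine zipper factors, and both were smaller in replicate 2 than in replicate 3.

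The control libraries were not level for these genes. Set around each gene's mean over the 6 libraries, the median log2 level of the 16 members was -0.054, -0.75 and -0.50 in shCtr and 1.29, -0.11 and 0.33 in shOSGEP. The control of replicate 1 thus lay 0.59 above the other controls by the median difference, and 4 of the 16 members had groups that did not overlap, beside 4.03% of all members. The knockdown library of replicate 1 lay 1.21 above the other knockdown libraries. Over all members, libraries of one number departed from their group means together, with correlations of 0.571, 0.602 and 0.291. Pairing by number would remove an offset that a pair shares. Whether the offset of these 16 members is of that kind was not tested.

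**Figure D2:**
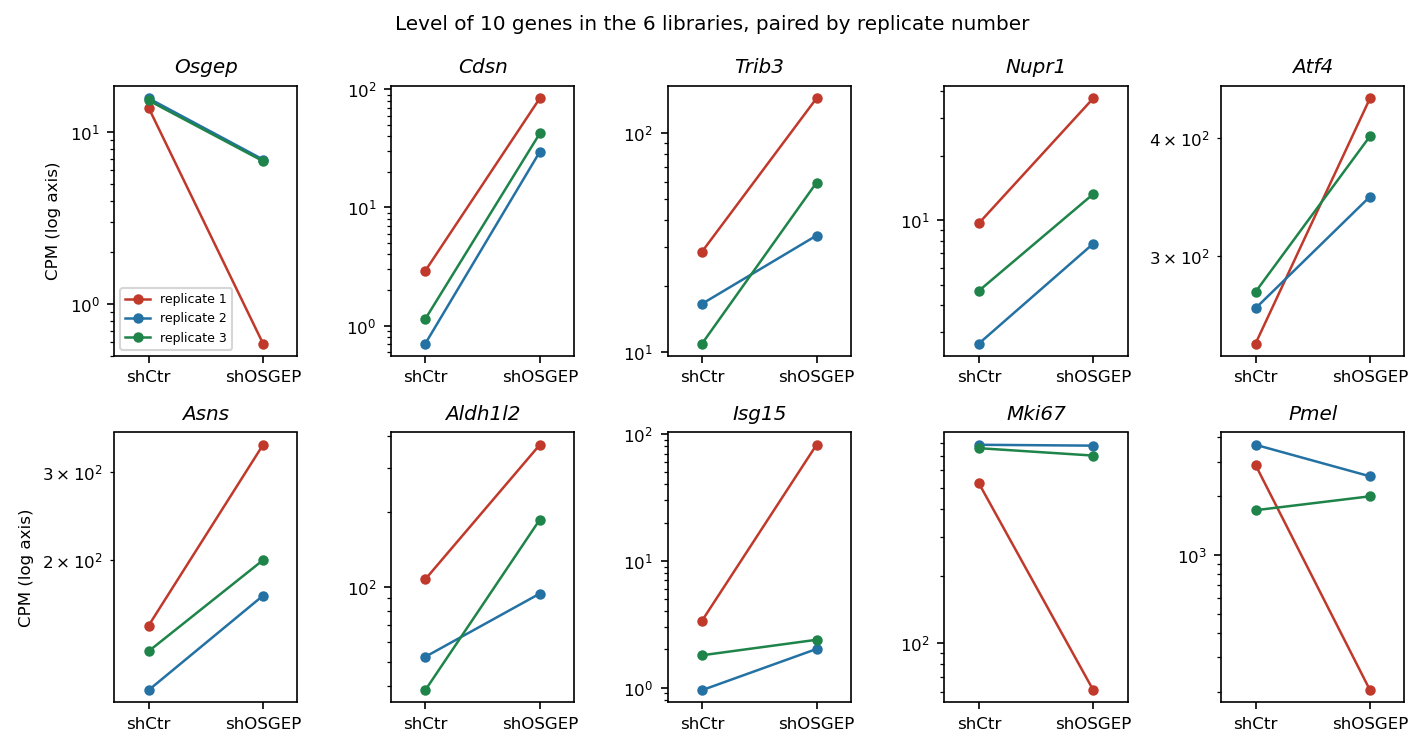
Level in CPM (y axes, log scale, a separate range for each gene) of 10 genes in shCtr and shOSGEP, with 1 line for each replicate number joining the control to its knockdown. Cdsn, Trib3, Nupr1, Atf4, Asns and Aldh1l2 are higher in all 3 knockdown libraries than in their paired control, Isg15 reaches 82.1 CPM in shOSGEP replicate 1, and Mki67 and Pmel are lowest in that library.

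The genes that make amino acids came next. The list of serine, asparagine, proline and one-carbon synthesis had medians of 0.67, 0.21 and 0.37. Of 16 members, 11 were higher in all pairs (17.3% of all members), none lower in all pairs, and 7 alike (2.43%). The groups did not overlap for 7 of the 16 (4.03% of all members). Asns, asparagine synthetase, had 148, 110.1 and 132 CPM in shCtr and 339, 169.8 and 199.9 CPM in shOSGEP. The knockdown libraries of Asns all lay above the controls, by 1.197, 0.63 and 0.60 in the pairs. Aldh1l2, a mitochondrial enzyme of folate metabolism, had 107, 52.3 and 38.5 and 370.5, 93.8 and 186 CPM, and its largest paired difference was in replicate 3 (1.79, 0.84 and 2.27). Psph, which completes serine synthesis, had 32.1, 22.6 and 23.4 CPM in shCtr and 74.3, 32.5 and 38.9 CPM in shOSGEP, without overlap. Mthfd2, a mitochondrial one-carbon enzyme, had 167, 169 and 156 and 285, 210.2 and 210.1 CPM, also without overlap. Pycr1, which makes proline, differed by 2.41, 0.042 and 1.22, with no more than a slight difference in replicate 2.

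The cytosolic aminoacyl-tRNA synthetases, which load tRNAs, had small medians of one sign, 0.33, 0.15 and 0.21. Of 20 members, 15 were higher in all pairs (17.3% of all members) and 3 lower (18%). The groups did not overlap, in the higher direction, for 10 (4.03% of all members). Nars, for asparagine, had 176, 164 and 177 CPM in shCtr and 294, 215 and 226 CPM in shOSGEP. Cars, for cysteine, differed by 0.55, 0.47 and 0.33, Lars, for leucine, by 0.70, 0.32 and 0.34, and Tars, for threonine, by 0.35, 0.35 and 0.27. The valine enzyme Vars went the other way (-0.81, -0.16 and -0.019). The 17 mitochondrial synthetases had medians of -0.12, 0.018 and 0.096, with no shared sign.

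The amino acid transporters did not share a direction, with medians of -0.075, -0.022 and 0.42 over 12 members. Within them Slc1a4, a carrier of serine and alanine, had 30.8, 24.7 and 20.2 CPM in shCtr and 86.8, 43.1 and 37.4 CPM in shOSGEP, so that the groups were apart, and paired differences of 1.49, 0.80 and 0.89. Slc6a9, the glycine carrier, differed by 1.12, 0.16 and 0.85. The chaperones and degradation factors of the endoplasmic reticulum had medians of -0.40, -0.23 and 0.16 over 25 members, of which 3 were higher in all pairs and none lower. Herpud1, a degradation factor there, was the 1 member alike, with 34.2, 41.7 and 39.4 CPM in shCtr and 70.6, 68.3 and 54.6 CPM in shOSGEP. Cytosolic heat shock proteins had medians of -0.062, 0.060 and -0.029, and mitochondrial chaperones and proteases of -0.14, 0.018 and 0.098.

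Promoters are shown for stress genes of this kind, since ATF4 with a partner binds composite elements that contain the letters TGATGNAA. The 250 bases before the start site come from RefSeq (GRCm38.p6), with matches on either strand in capitals. Only promoters with a match are shown. Those of Trib3, Ddit3, Atf4, Psat1, Phgdh and Cdsn held none in these 250 bases.
Asns, chr6:7693210-7693459, minus strand: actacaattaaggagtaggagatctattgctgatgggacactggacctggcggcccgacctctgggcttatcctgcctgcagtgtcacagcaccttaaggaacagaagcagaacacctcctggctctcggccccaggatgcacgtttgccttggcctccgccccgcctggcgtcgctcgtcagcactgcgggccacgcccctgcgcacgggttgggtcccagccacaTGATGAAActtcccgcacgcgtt
Chac1, chr2:119350992-119351241, plus strand: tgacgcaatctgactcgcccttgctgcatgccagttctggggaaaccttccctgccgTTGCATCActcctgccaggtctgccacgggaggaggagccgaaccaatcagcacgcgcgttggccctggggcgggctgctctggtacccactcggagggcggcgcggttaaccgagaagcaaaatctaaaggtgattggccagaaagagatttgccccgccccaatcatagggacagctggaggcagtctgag
Nupr1, chr7:126625471-126625720, minus strand: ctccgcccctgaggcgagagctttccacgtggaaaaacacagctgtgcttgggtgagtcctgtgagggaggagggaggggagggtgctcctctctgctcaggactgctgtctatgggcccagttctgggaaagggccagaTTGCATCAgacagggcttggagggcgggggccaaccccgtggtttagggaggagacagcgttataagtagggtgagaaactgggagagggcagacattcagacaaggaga
The match began 23 bases before the start site in Asns, 193 in Chac1 and 110 in Nupr1. RefSeq windows of 300 bases, 250 before and 50 after a start, were found for 9151 of the 11577 members. In them TGATGNAA occurred in 2.61% of members and in 4.51% of all 27025 genes with a window. It occurred in 22 of 224 members alike and higher (9.82%), in 0 of 86 alike and lower, and in 1.63% of those higher in replicate 1. Of the stress response regulators 5 of 15 held it (Atf3, Trib3, Chac1, Nupr1 and Jdp2), of the amino acid synthesis list 3 of 14 (Asns, Pycr1 and Got1), and of the cytosolic synthetases 5 of 12 (Aars, Gars, Iars, Tars and Yars). A match is a run of letters and not a measured binding site.

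Other members with the largest shared increases were not in these lists. Ranked by the smallest of their 3 paired differences, the first 10 were Cdsn, Apobr, Prnd, Akr1b7, Nupr1, Cyb5r2, Hspb7, Gbp7, Abca8b and Trib3. Apobr, a lipoprotein receptor, had 1.48, 0.216 and 0.331 CPM in shCtr and 19.9, 1.02 and 2.40 CPM in shOSGEP. Prnd, which encodes the prion-like protein doppel, had 1.65, 0.504 and 0.806 and 10.9, 2.18 and 2.43 CPM, and its groups did not overlap. Akr1b7, an aldo-keto reductase, had 0.714, 0.504 and 0.537 and 12.8, 1.49 and 3.82 CPM, and was the second member, besides Cdsn, that DESeq2 called (log2 change 3.36, adjusted p = 0.00462). In edgeR the adjusted p of Akr1b7 was 0.975, and 0.721 with the block. Cyb5r2 differed by 3.20, 1.28 and 2.11, Hspb7, a small heat shock protein, by 4.44, 1.497 and 1.25, and Abca8b, a lipid transporter, by 2.45, 1.05 and 1.41. In Apobr, Akr1b7, Cyb5r2, Hspb7 and Abca8b the largest of the 3 differences was that of replicate 1.

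Members alike and higher were low in expression, with a median control level of 3.87 CPM against 33.3 CPM over all members, and 90 of the 281 had a smallest count under 50. Replicate 1 gave the largest of the 3 differences in 231 of the 281, beside 8647 of all 11577 members. In shCtr replicate 1 the 281 lay above the other controls by a median of 0.45 log2 units, against -0.0085 for all members. Level, library and replicate move together here, and the part of each was not tested.

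Fewer lists and genes were lower alike. DNA replication genes had medians of -1.62, -0.13 and -0.18, with 25 of 29 members lower in all 3 pairs (18% of all members) and none higher, but 2 reached 0.25 log2 units in every pair. These were Rpa2, a subunit of the protein that coats single-stranded DNA (-1.71, -0.35 and -0.28), and Cdc6, a licensing factor (-1.44, -0.28 and -0.33). The polyamine synthesis list also holds genes that regulate or break down polyamines, Sat1 and Smox among them. Its medians were -0.50, -0.18 and -0.10, with 5 of 11 members lower in all pairs (18% of all members) and 1 higher. With the median of all members subtracted in each pair, this list no longer reached 0.1 in size in every pair. Sat1, which acetylates polyamines for export, had 44.3, 44.3 and 41.2 CPM in shCtr and 17.6, 38.7 and 35.1 CPM in shOSGEP, without overlap. Smox, which oxidises spermine, had 24.7, 23.1 and 23.5 and 12.8, 20.1 and 19.6 CPM, also without overlap.

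By the smallest paired difference, the 10 members most alike in the lower direction were Abca12, Osgep, Frmpd1, Mest, Rlbp1, Ptgds, Slc27a3, Pafah1b3, Car15 and Sgk2. Abca12, a lipid transporter of skin, had 77.5, 242 and 42.7 CPM in shCtr and 0.682, 97.4 and 14.1 CPM in shOSGEP, and its controls spanned a wider range than its pairs 2 and 3 differed by. Mest, an imprinted gene for a hydrolase-like protein, had 21.6, 65.6 and 25.4 and 2.59, 28.5 and 14.9 CPM. Ptgds, prostaglandin D2 synthase, had 305, 395 and 177 and 23.5, 187 and 106 CPM, with overlapping groups. Among the others the groups did not overlap for Rlbp1, a retinoid-binding protein (-1.995, -1.05 and -0.75), Pafah1b3, a lipid hydrolase subunit (-1.198, -0.67 and -0.77), and Car15, a carbonic anhydrase (-0.91, -0.90 and -0.62). Frmpd1 differed by -0.79, -1.12 and -1.002, Slc27a3, a fatty acid transport protein, by -0.71, -0.90 and -0.89, and the kinase gene Sgk2 by -1.32, -0.61 and -0.81. None of these genes passed the adjusted threshold of edgeR.

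Chemokines, cytokines and checkpoint ligands also had medians of one sign, 1.41, 0.23 and 0.35, over the 11 members of 24 genes. Of the 11, 7 were higher in all pairs (17.3% of all members) and none lower, and 3 were alike (2.43%). Ccl5, which attracts T cells, had 7.09, 1.33 and 6.82 CPM in shCtr and 17.8, 3.58 and 9.26 CPM in shOSGEP, with the lowest values in both libraries of replicate 2. Cx3cl1, a membrane-bound chemokine, had 2.25, 2.88 and 4.05 and 6.37, 5.45 and 5.32 CPM, and its groups did not overlap. Ccl28 differed by 1.41, 0.43 and 0.48. Cxcl10, an interferon-induced chemokine, had 19.0, 2.61 and 22.8 CPM in shCtr and 155, 5.21 and 23.5 CPM in shOSGEP, with nearly equal levels in the pair of replicate 3. Cd274, which encodes the checkpoint ligand PD-L1, had 12.4, 10.9 and 11.2 and 59.2, 12.3 and 12.8 CPM. The other 13 genes of this list had under 10 counts in at least 1 library, so the medians speak for the better expressed part.

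The p53 list had small medians of one sign, 0.11, 0.21 and 0.13 over 17 members. Of these, 6 were higher in all pairs (17.3% of all members), none lower and 2 alike (2.43%). It too no longer reached 0.1 in every pair once the median of all members was subtracted. These 2 were Eda2r, a receptor of the TNF family (0.39, 1.28 and 1.38), and Btg2, an antiproliferative gene (1.40, 0.76 and 0.27). Cdkn1a, the cell cycle inhibitor p21, had 443, 268 and 347 CPM in shCtr and 571, 317 and 376 CPM in shOSGEP, with overlapping groups.

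The extracellular matrix list had medians of 0.97, 0.10 and 0.12 over 22 members. Of these, 11 were higher in all pairs (17.3% of all members), 1 lower and 3 alike (2.43%). Most of the difference was in replicate 1, and 6 members were in the class higher there (5.19% of all members). Fn1, fibronectin, had 224, 179 and 221 CPM in shCtr and 801, 277 and 288 CPM in shOSGEP, without overlap. Lamc1, a laminin chain, had 189, 238 and 289 and 368, 328 and 354 CPM, also without overlap. Col4a1, a basement membrane collagen, differed by 1.17, 0.48 and 0.25. Col1a1, which is also one of the fibroblast markers, had 1.12, 0.540 and 0.537 CPM in shCtr and 15.3, 0.620 and 2.69 CPM in shOSGEP, with its 2 higher knockdown values in replicates 1 and 3. The fibroblast markers summed to 25.3 CPM in shOSGEP replicate 1, of which Col1a1 gave 15.3 CPM. Of the 7 markers 3 were members, and in replicate 1 2 of these were higher and 1 was lower. Since Col1a1 is in both lists, the marker sum is not independent of this list. The part of fibroblasts in it was not tested.

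**Figure D3:**
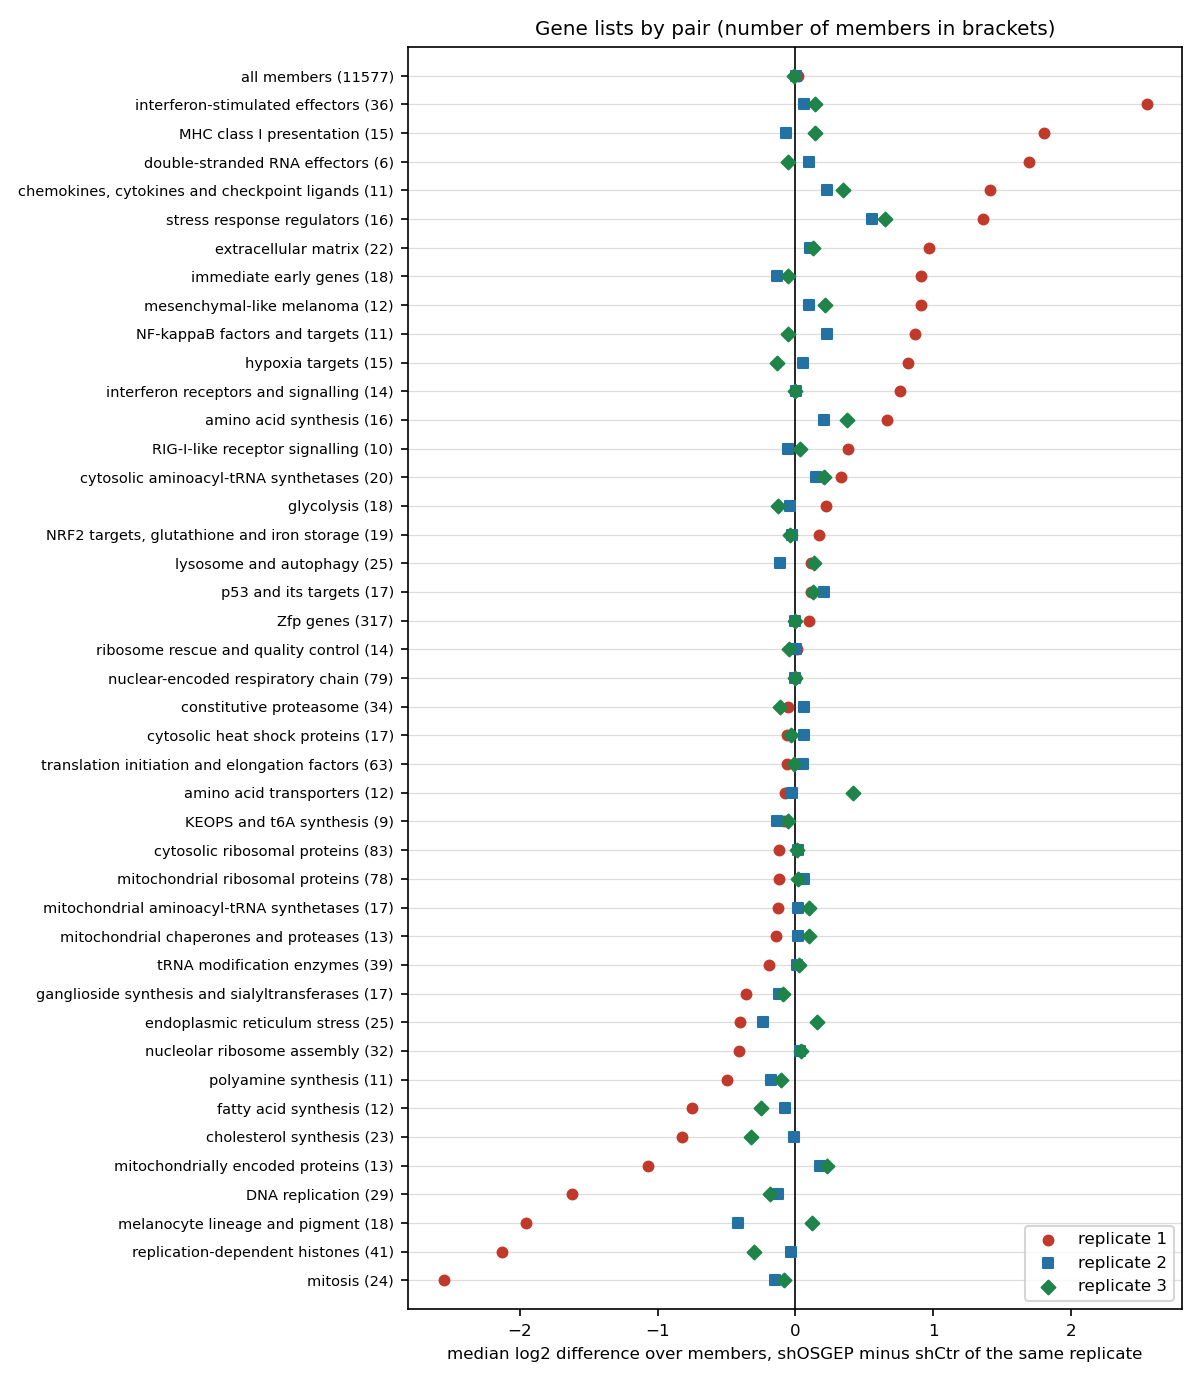
Median paired log2 difference (x axis) over the members of each gene list (y axis, sorted by replicate 1, with all members at the top) in replicates 1, 2 and 3. The stress response regulators are the list whose 3 points all lie above 0.5, whereas the interferon, MHC class I, mitosis and histone lists are far from 0 in replicate 1 and nearer to it in replicates 2 and 3.

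Interferon-stimulated effectors moved mainly in replicate 1. Their medians were 2.55, 0.063 and 0.14 over 36 members of 53 genes, or 5.86-fold in replicate 1 and 1.04-fold and 1.10-fold in the others. In replicate 1, 34 of the 36 were higher. In replicates 2 and 3 the members split, and 12 of 36 were higher in all 3 pairs (17.3% of all members) while 2 were lower. Of the 36, 7 were alike and higher (19.4%, beside 2.43% of all members) and 12 were in the class higher in replicate 1 (33.3%, beside 5.19%), so that the list held members of both classes. Below 10 counts in at least 1 library were 17 genes of the list.

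The members alike within this list were led by guanylate-binding proteins and antiviral effectors. Gbp2 had 3.50, 1.26 and 3.53 CPM in shCtr and 91.6, 3.95 and 6.99 CPM in shOSGEP, and its groups did not overlap. Gbp7 had 1.497, 0.306 and 0.475 and 20.6, 0.788 and 1.15 CPM, with paired differences of 3.75, 1.28 and 1.22. Isg15, a ubiquitin-like modifier, had 3.37, 0.955 and 1.80 CPM in shCtr and 82.1, 2.02 and 2.38 CPM in shOSGEP, so that shOSGEP replicates 2 and 3 lay below shCtr replicate 1. Ifit1, which binds foreign RNA, differed by 4.15, 1.08 and 0.54, and Ifit3 by 3.38, 0.61 and 0.39. The order of the pairs was the same in Gbp2, Isg15, Ifit1 and Ifit3, with replicate 1 first and replicate 3 last.

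The sensors upstream were higher in replicate 1 by a larger amount than in the other pairs. Ddx58 had 18.3, 5.15 and 11.5 CPM in shCtr and 188, 7.43 and 12.4 CPM in shOSGEP, and shOSGEP replicates 2 and 3 lay within the range of the controls. Ifih1 had 9.68, 5.33 and 7.56 and 55.1, 7.61 and 8.95 CPM, with paired differences of 2.50, 0.51 and 0.24. Dhx58, which encodes the regulator LGP2, had 2.01, 1.22 and 1.26 and 59.8, 1.01 and 1.32 CPM. The list of RIG-I-like receptor signalling as a whole had medians of 0.38, -0.052 and 0.036 over 10 members. The 6 members of the double-stranded RNA effectors had medians of 1.69, 0.098 and -0.055, led by Oas1g (4.17, 0.20 and 0.36) and Oas1a (4.05, 0.16 and 0.60), which make the activator of RNase L.

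The genes that carry the interferon signal had medians of 0.76, 0.0063 and -0.0016 over 14 members. Irf9, a factor that interferon receptors activate, had 7.67, 3.55 and 3.49 CPM in shCtr and 51.7, 3.41 and 5.76 CPM in shOSGEP, with paired differences of 2.75, -0.057 and 0.72. The pattern was alike for MHC class I presentation, with medians of 1.81, -0.070 and 0.14 over 15 members, all 15 higher in replicate 1 and 11 of them in the class that moved there (5.19% of all members). H2-K1, a class I heavy chain, had 14.4, 4.36 and 4.13 CPM in shCtr and 114, 2.67 and 4.48 CPM in shOSGEP. B2m, the light chain, had 414, 327 and 325 and 853, 294 and 347 CPM. Psmb9, an immunoproteasome subunit, differed by 3.18, 0.092 and 0.087, and Nlrc5, the transactivator of class I genes, by 3.31, 0.62 and 0.27. Of the 15 members, 2 had groups that did not overlap, both higher, beside 4.03% of all members. Erap1, a peptide trimming enzyme, was 1 of these (1.81, 0.48 and 0.26).

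Cd74, the invariant chain of MHC class II, had 5.95, 1.91 and 1.74 CPM in shCtr and 108, 3.06 and 13.3 CPM in shOSGEP, and was higher in all pairs by 4.18, 0.67 and 2.91. The class II list had 3 members of 7 genes and was not summarised. NF-kappaB factors and targets had medians of 0.87, 0.23 and -0.054 over 11 members, with Bcl3 (2.57, 0.68 and 0.29) first in replicate 1.

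The controls were again not level. Around each gene's own mean, the median log2 level of the interferon-stimulated effectors was -0.046, -0.93 and -0.47 in shCtr and 2.60, -0.66 and -0.33 in shOSGEP. The control of replicate 1 lay 0.63 above the other controls, and its knockdown 3.02 above the other knockdown libraries. For MHC class I these offsets were 0.64 and 2.31. The residual Osgep level of 4.25%, the libraries of replicate 1 and the higher interferon genes move together, and their separate parts were not tested.

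Promoters of a pair of these genes are shown with the interferon response element, searched as GAAANNGAAA on both strands and given in capitals (RefSeq, GRCm38.p6).
Gbp2, chr3:142620413-142620662, plus strand: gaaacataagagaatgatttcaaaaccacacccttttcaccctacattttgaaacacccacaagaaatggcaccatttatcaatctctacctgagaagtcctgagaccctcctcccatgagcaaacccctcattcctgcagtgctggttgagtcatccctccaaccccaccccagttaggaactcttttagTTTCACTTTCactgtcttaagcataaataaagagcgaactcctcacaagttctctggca
Isg15, chr4:156200819-156201068, minus strand: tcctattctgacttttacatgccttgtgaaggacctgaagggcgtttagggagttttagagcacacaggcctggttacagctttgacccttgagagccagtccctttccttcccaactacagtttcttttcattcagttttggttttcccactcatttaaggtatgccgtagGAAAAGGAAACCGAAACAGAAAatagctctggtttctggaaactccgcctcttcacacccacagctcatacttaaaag
Gbp2 held 1 match and Isg15 held 3 that overlap, with the first starting 59 and 78 bases before the start site. In the 300-base windows the element occurred in 3.4% of members and 3.99% of all genes, in 16 of 31 interferon-stimulated effectors (51.6%) and in 3 of 12 genes of MHC class I presentation. It occurred in 9.38% of members alike and higher and in 7.76% of those higher in replicate 1.

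**Figure D4:**
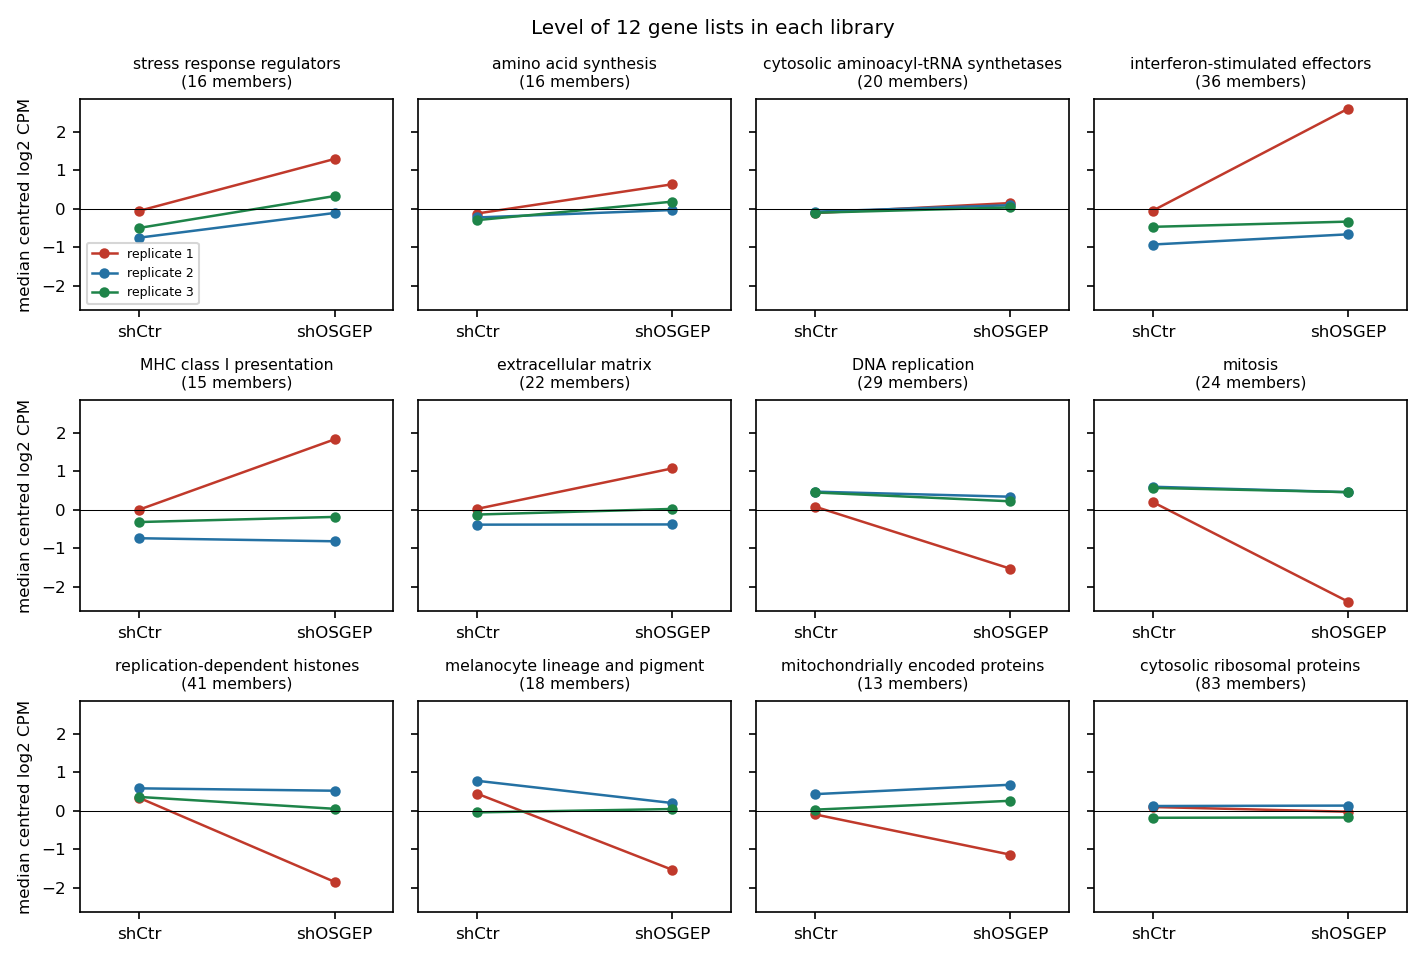
Level of 12 gene lists in each library, as the median over members of log2 CPM around each gene's mean over the 6 libraries (y axis), with 1 line for each replicate number from shCtr to shOSGEP. The stress response regulators lie higher in each knockdown library than in its paired control, from controls at different levels, whereas the interferon, mitosis, DNA replication, histone and pigment lists depart in shOSGEP replicate 1.

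Over all members, the 10 with the largest increase in replicate 1 and under 0.5 in size in the others were Myl9, Dhx58, Irgm2, Sp100, Oas1g, Trim12c, Tgfb3, Psmb9, Ifit3b and Baalc. Most of these are known as interferon-induced or immunoproteasome genes, and Myl9, Tgfb3 and Baalc are not. Myl9, a myosin light chain of contractile cells, had 4.39, 4.67 and 5.66 CPM in shCtr and 145, 5.80 and 7.35 CPM in shOSGEP. Its groups did not overlap, and the differences in replicates 2 and 3 were 0.31 and 0.37. Tgfb3, a growth factor, had 24.3, 17.4 and 19.7 and 229.8, 19.7 and 24.7 CPM. Baalc differed by 2.998, 0.13 and 0.18. Irgm2 (4.39, -0.12 and 0.40), an interferon-inducible GTPase, and Sp100 (4.24, -0.030 and 0.50), a nuclear body protein, each had replicate 2 near 0. Trim12c (3.84, 0.47 and 0.42) and Ifit3b (3.14, 0.35 and 0.36) were higher in all pairs.

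Proliferation genes were lower in replicate 1. The mitosis list had medians of -2.55, -0.15 and -0.085, or 5.88-fold lower in replicate 1, and all 24 of its members were in the class lower in replicate 1 (7.34% of all members). In the other pairs the differences were small yet mostly of the same sign, with 21 of 24 lower in all 3 pairs (18% of all members). Mki67, the proliferation marker, had 526, 783 and 756 CPM in shCtr and 61.1, 776 and 700.1 CPM in shOSGEP. Plk1, a mitotic kinase, had 132, 183 and 161 and 14.9, 151 and 142 CPM, and Cdc20, an activator of mitotic protein degradation, had 75.6, 93.8 and 72.9 and 7.72, 78.1 and 66.9 CPM. Aurkb, another mitotic kinase, was the 1 member alike by at least 0.25 log2 units (-2.45, -0.27 and -0.29).

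For DNA replication the median in replicate 1 corresponded to 3.08-fold lower, and 25 of 29 members were in that class (7.34% of all members). Chaf1a, a histone chaperone of replication forks, had 124, 136 and 140.3 CPM in shCtr and 25.7, 134 and 121 CPM in shOSGEP. Cdt1, a licensing factor, had 123, 152 and 132 and 30.0, 119 and 113 CPM, without overlap. Replication-dependent histones had medians of -2.13, -0.034 and -0.30 over 41 of 65 genes. Of the 41, 34 were in the class lower in replicate 1 (7.34% of all members) and 25 were lower in all pairs (18%). Hist1h4h had 393, 452 and 375 and 117, 345 and 282 CPM, and Hist1h2ag had 84.3, 84.1 and 68.3 and 13.1, 65.5 and 50.3 CPM, both without overlap. Histone genes share near-identical sequence, so reads can be split between copies, and most of their RNA lacks a poly-A tail. The labels give polyadenylated RNA as the molecule, and the part of that capture step in the histone levels was not tested. The control of replicate 1 lay below the other controls by 0.37 log2 units for mitosis and 0.35 for DNA replication.

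The 10 members with the largest decrease in replicate 1 alone were Pif1, Megf6, Fbln1, Sapcd2, Matn3, Iqgap2, Iqgap3, Cenpa, Hpgds and Cdc20. Pif1, a DNA helicase, had 18.2, 28.3 and 24.7 CPM in shCtr and 1.15, 20.5 and 18.6 CPM in shOSGEP. Fbln1, a matrix protein, had 177, 147 and 99.3 and 14.9, 118 and 114 CPM, and Matn3, another matrix protein, differed by -3.43, -0.33 and -0.13. Cenpa, the centromeric histone, had 71.6, 84.4 and 65.9 and 6.86, 63.7 and 66.3 CPM. The scaffold genes Iqgap2 (-3.42, -0.14 and -0.15) and Iqgap3 (-3.41, -0.35 and -0.068), the gene Sapcd2 (-3.49, -0.34 and -0.26), the enzyme gene Hpgds (-3.31, 0.017 and -0.27) and Megf6 (-3.67, -0.20 and -0.14) completed the group.

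As a sequence example for the proliferation genes, the promoter of Mcm5, a subunit of the replicative helicase, is shown with E2F elements in capitals, searched on both strands as TTTCCCGC, TTTGGCGC, TTTGCCGC and TTTCGCGC.
Mcm5, chr8:75109259-75109508, plus strand: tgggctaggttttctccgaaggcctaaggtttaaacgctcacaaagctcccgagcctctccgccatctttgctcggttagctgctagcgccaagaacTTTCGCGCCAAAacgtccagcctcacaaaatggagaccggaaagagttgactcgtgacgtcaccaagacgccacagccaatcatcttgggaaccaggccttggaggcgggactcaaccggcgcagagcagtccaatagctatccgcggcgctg
Its 2 matches overlap, 1 on each strand. The promoter of the mitosis gene Cdc20, searched alike, held none and is not shown. Mcm5 had 152, 209 and 179 CPM in shCtr and 42.4, 183 and 159 CPM in shOSGEP. E2F elements occurred in 4.9% of members and 2.6% of all genes, in 10 of 23 DNA replication genes (43.5%), in 1 of 19 mitosis genes and in 10.3% of the members lower in replicate 1.

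Pigment genes were lower in replicate 1, and the other pairs went in opposite directions. The melanocyte list had medians of -1.96, -0.42 and 0.12, with 18 of 18 members lower in replicates 1 and 2 and 5 lower in replicate 3. Pmel, the fibril protein of melanosomes, had 2889.7, 3665 and 1694 CPM in shCtr and 203, 2527 and 1996 CPM in shOSGEP. Tyrp1, an enzyme of melanin synthesis, had 4724, 6894 and 3688 and 1191, 4951 and 5049.9 CPM. Tyr, the first enzyme of that pathway, had 51.9, 275 and 107 and 6.31, 119 and 127 CPM, so its controls differed among themselves by more than those of Pmel or Tyrp1. Oca2, a melanosome channel, differed by -3.03, -2.59 and 0.49.

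The factors that define the lineage were less different. Mitf had 588, 658 and 553 CPM in shCtr and 232, 577 and 563 CPM in shOSGEP, and Sox10 had 555, 569.7 and 619 and 417, 543 and 546 CPM. Sox10 was lower in all 3 pairs by -0.41, -0.071 and -0.18, and its groups did not overlap. In RNA of whole cultures, fewer cells of a kind and less RNA per cell cannot be told apart. For Dct, a melanin enzyme with 3639, 3816 and 2540.0 CPM in shCtr and 457, 3326 and 2652 CPM in shOSGEP, the promoter is shown with the MITF element, searched as TCATGTG on both strands, in capitals.
Dct, chr14:118052247-118052496, minus strand: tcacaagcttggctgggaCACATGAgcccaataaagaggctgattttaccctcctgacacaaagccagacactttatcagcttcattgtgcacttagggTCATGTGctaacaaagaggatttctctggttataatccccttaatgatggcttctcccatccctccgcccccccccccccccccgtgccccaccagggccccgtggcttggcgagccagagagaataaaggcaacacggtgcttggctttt
This element occurred in 2.48% of members, 4.31% of all genes and 6 of 11 genes of the melanocyte list (54.5%). The promoters of Mitf itself held none.

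Mesenchymal-like melanoma genes had medians of 0.91, 0.095 and 0.21 over 12 members of 19 genes. The members split in replicate 1, with 7 higher and 5 lower, from -1.003 to 7.57. In all 3 pairs 4 were higher and 0 lower. Thbs1, thrombospondin, had 5.78, 11.1 and 12.05 CPM in shCtr and 115, 15.8 and 15.4 CPM in shOSGEP, and its groups did not overlap. Axl, a receptor kinase, differed by 3.01, 0.39 and 0.59.

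The 13 protein genes of mitochondrial DNA went in opposite directions between pairs. Their medians were -1.07, 0.17 and 0.23, all 13 lower in replicate 1 and all 13 higher in replicate 3. mt-Nd3 had 99.0, 169.6 and 99.6 CPM in shCtr and 22.7, 156 and 105 CPM in shOSGEP, and mt-Atp6 had 989.5, 1481 and 1252 and 313, 1569 and 1514 CPM. The 79 nuclear-encoded subunits of the respiratory chain stayed near 0 in each pair (0.0054, -0.0046 and -0.0054), as did the 78 mitochondrial ribosomal proteins (-0.12, 0.061 and 0.020). Nuclear copies of mitochondrial genes can share reads with them, which the counting leaves uncertain.

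Lipid synthesis genes were lower in replicates 1 and 3. Cholesterol synthesis had medians of -0.82, -0.0085 and -0.32 over 23 members and fatty acid synthesis of -0.75, -0.079 and -0.25 over 12. Lower in all 3 pairs were 9 and 6 of these members, beside 18% of all members. Elovl6, which lengthens fatty acids, had 102, 135 and 96.2 CPM in shCtr and 16.4, 119 and 79.5 CPM in shOSGEP. Hypoxia targets had medians of 0.82, 0.055 and -0.13, among which Vegfa, the vascular growth factor, was higher in all pairs (1.82, 0.36 and 0.77). Immediate early genes had medians of 0.91, -0.13 and -0.056, with no member of 18 higher in all pairs. Egr1, the first of them in replicate 1, differed by 2.80, -0.76 and 0.67. Glycolysis (0.22, -0.042 and -0.13), antioxidant and iron storage genes (0.17, -0.026 and -0.040), lysosome and autophagy (0.12, -0.12 and 0.13) and sialyltransferases (-0.36, -0.12 and -0.092) had smaller medians. Within the antioxidant list Hmox1, heme oxygenase, had 36.4, 51.9 and 37.3 CPM in shCtr and 342, 74.2 and 54.9 CPM in shOSGEP, without overlap.

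The lists of the translation machinery had medians near 0, apart from nucleolar assembly, but their members spread to both sides in replicate 1. The 83 cytosolic ribosomal proteins had medians of -0.12, 0.022 and 0.011 and paired differences between -0.65 and 0.37 log2 units. The 63 initiation and elongation factors had medians of -0.065, 0.055 and -0.010, with members from -1.37 to 1.49 in replicate 1, and Eef2kmt, which methylates elongation factor 2, was the 1 member alike (0.995, 0.26 and 0.31). The 39 enzymes of other tRNA modifications had medians of -0.19, 0.010 and 0.028 and members from -1.28 to 0.93 in replicate 1, with Adat3, a subunit of the tRNA adenosine deaminase, the 1 member alike (-0.97, -0.27 and -0.79). The 14 ribosome rescue factors had medians of 0.010, 0.0073 and -0.048, and the 34 proteasome subunits of -0.054, 0.061 and -0.11. Nucleolar ribosome assembly genes had medians of -0.41, 0.033 and 0.043, and 30 of the 32 members were lower in replicate 1. The 317 zinc finger genes named Zfp had medians of 0.098, -0.0055 and -0.0053, with 18.6% higher and 14.5% lower in all pairs, near the shares of all members.

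By count, 8 of 42 lists had medians of one sign and at least 0.1 in size in every pair, and 12 had a median of at least 0.5 in size in replicate 1 with under 0.25 in the others. Lists needed at least 5 members to be counted, so the MHC class II list, with 3, could meet neither criterion. DNA replication and extracellular matrix met both criteria and are in both counts. The members higher in replicate 1 had a median control level of 10.3 CPM and those lower there 51.1 CPM, beside 33.3 CPM over all members. The median GC content of the longest transcript was 50.5% for members alike and higher and 54.9% for those alike and lower, beside 49.7% over all members, and median lengths were 3295, 3051 and 3463 bases.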

How the data were processed

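The authors deposited a table of read counts per Ensembl gene for the total RNA libraries, as whole numbers with no normalisation. The submitters' processing notes name FastQC 0.11.9, Trim Galore 0.6.6, cutadapt and STAR 3.0, with both GRCm38 and GRCm39 as builds, so the build behind the counts is uncertain. The counting tool, its strand setting, what it did with multiply mapped reads and the kit of these libraries are not given in the sources used here. Reads of near-identical, overlapping or antisense genes may therefore be split. Gene symbols, gene biotypes and coordinates (GRCm38) were those of GENCODE M21, in which 55227 of 55487 gene IDs were found. The 260 others, 8 of them with 10 or more counts in every library, could not be members.

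Library sizes were scaled by TMM in edgeR 4.0.16 (R 4.3.3). Levels are CPM on these sizes. Paired differences used log2 CPM with a prior count of 2, which understates the change of low genes, and folds are powers of 2 of these differences. Genes were tested over the whole table after edgeR's filter on low counts, with the 2-sided quasi-likelihood test and Benjamini-Hochberg adjustment. The main fit had no block, and another had the replicate number as a block. The steps were run on simulated data in which no library stood apart. That run therefore does not show how many changed genes could be called here. Each sample's group and number came from its label. The libraries were paired by this number. Libraries of one number departed from their group means together, with correlations across genes of 0.571, 0.602 and 0.291 in replicates 1, 2 and 3. Libraries of unlike numbers were not compared in this way, and the 3 values share the same group means. They therefore do not test the pairing. No pair of replicates of a group agreed within sampling noise. DESeq2 1.42.0, other scalings, filters, prior counts and sizes, and leaving out libraries were tried as alternatives.

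Members, gene lists and tests were chosen with earlier results of these data known. Named were Osgep and the t6A genes, the members of each list most alike over the pairs or with the largest difference in replicate 1, the 10 members first in each class and direction, a fixed set of genes of the stress, interferon and pigment programmes in every case, and genes past the adjusted threshold. Genes named beside these, such as Vars, Cdkn1a, Sox10, Lage3, Mcm5 and Hist1h4h, were chosen after their values were seen. Some genes that the rule names are not reported here.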

Additional observations from a re-analysis of the deposited data

How the results depend on the processing

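The main edgeR fit without a block called 0 genes (259 at an unadjusted p under 0.05). The count was 1 with the replicate block (449 at an unadjusted p under 0.05). It was 9 with DESeq2, among 24684 genes with a p-value in place of 14516. The study's RNA sequencing criterion is an unadjusted p under 0.05 with a log2 change over 0.5 in size. Under it the main edgeR fit held 223 genes. Leaving out libraries gave 0 to 1 calls, with the 1 call, Cdsn, found by the block without replicate 1. The pairing by number changed no other call. The log2 change of Osgep stayed below 0 under every alternative run, from -1.13 without shOSGEP replicate 1 to -2.81 with the block and without replicate 3. Members alike and higher were 281, and 2007 at any size above 0, 80 at a size of 0.5, and 351 to 977 when a pair was left out. Members alike and lower were 112, and 2083 at any size, 18 at a size of 0.5, 74 with a minimum of 50 counts, and 192 to 598 when a pair was left out. With a bound of 0.25 in place of 0.5 in replicates 2 and 3, the members higher in replicate 1 were 262 in place of 601 and those lower 520 in place of 850. Lists alike were 8, and 6 with the median of all members subtracted, which removed polyamine synthesis and p53, 7 with RLE size factors, 9 with the protein-coding total, 11 with means in place of medians, and 9 to 15 when a pair was left out. Fewer criteria apply with fewer pairs. The fits that left out pairs, and the pairwise counts without a replicate, were added after seeing the data. RLE size factors, a prior count of 0.5 and the total of protein-coding counts moved none of these counts by over 1.5 times. Depth was not the same limit for all, since low genes rest on few counts, and 849 of the 11577 members had under 50 counts in at least 1 library.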

Other observations

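Outside the members, DESeq2 called 7 genes that had under 10 counts in at least 1 library or are not protein-coding. Among them were Ogn, which encodes the matrix protein osteoglycin (log2 change 5.57, adjusted p = 6.385e-06), Atp2a3, a calcium pump (3.79, adjusted p = 0.01095), and Ugt1a6a, a glucuronosyltransferase (5.08, adjusted p = 0.004618). The main edgeR fit called none of the 9 genes of DESeq2, with 259 genes at an unadjusted p under 0.05. Ugt1a6a shares exons with its neighbours of the Ugt1a cluster, so its counts are uncertain.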
